A study of Mus musculus with 2 samples.

Results

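The 10 genes examined encode cytokines and death ligands that T cells make, and they were taken by symbol from the 32285 genes listed in both count tables: Ifng, Tnf, Il2, Il21, Csf2, Fasl, Tnfsf10, Lta, Ltb and Tgfb1. All 10 had transcripts in both libraries. The cells were donor T cells sorted from spleens after allogeneic hematopoietic cell transplantation (allo-HCT), in which lethally irradiated BALB/c (H-2d) mice received T cell-depleted bone marrow and purified splenic T cells from C57BL/6 (H-2b) mice, a model of acute graft-versus-host disease (aGvHD). The labels call the transferred T cells naive, whereas the study's text for the single-cell experiment does not use that word. Sorted cells carried CD45, H2Kb and TCRβ and lacked H2Kd. One library was made at day +7 and 1 at day +14, both on the 10x Genomics platform, with cells pooled from 5 spleens. Both library names carry the word PBS, which the labels explain no further, and no library of resting T cells or of a syngeneic transplant was analysed here. The sort is dated to day +7 in the protocol text of both libraries, so each title was used for the day.

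Interferon-gamma, encoded by Ifng, and tumor necrosis factor, encoded by Tnf, are the inflammatory cytokines of activated T cells, and Fas ligand (Fasl) and TRAIL (Tnfsf10) trigger apoptosis through death receptors on the target cell. IL-2 drives T cell proliferation, IL-21 is a cytokine of helper T cells, and GM-CSF, the product of Csf2, acts on myeloid cells. In aGvHD, donor T cells injure host tissues through such ligands, and TGF-β1 (Tgfb1) is known for restraining T cells, whereas the lymphotoxins (Lta, Ltb) are TNF family members that organize lymphoid tissue. Many cytokine genes are transcribed in bursts after the T cell receptor is engaged, through factors such as NFAT, so the number of transcripts can differ greatly between neighboring cells.

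In the mm10 genome Tnf, Lta and Ltb lie on chromosome 17, within 10913 bases (chr17:35194439-35205351), and Il2 and Il21 lie within 112114 bases on chromosome 3 (chr3:37120523-37232636). Tnfsf10 is also on chromosome 3 (chr3:27317028-27342427), Ifng on chromosome 10 (chr10:118441046-118445892), Csf2 on chromosome 11 (chr11:54247271-54249667), Fasl on chromosome 1 (chr1:161780689-161788495) and Tgfb1 on chromosome 7 (chr7:25687002-25705077). Positions are those of the GENCODE M21 annotation. Promoter windows of 300 bases (250 before and 50 after the start) were read for all 10 genes from RefSeq on GRCm38.p6, the assembly of mm10. The windows below are those of Tnfsf10 and Il21, the genes that were past 2-fold between the days in CD8 cells, and of the inflammatory cytokines Ifng and Tnf. Each is written 5′ to 3′ on the strand of the gene, and capitals mark the NFAT core GGAAA on either strand.
Tnfsf10 (chr3:27316827-27317126, plus strand): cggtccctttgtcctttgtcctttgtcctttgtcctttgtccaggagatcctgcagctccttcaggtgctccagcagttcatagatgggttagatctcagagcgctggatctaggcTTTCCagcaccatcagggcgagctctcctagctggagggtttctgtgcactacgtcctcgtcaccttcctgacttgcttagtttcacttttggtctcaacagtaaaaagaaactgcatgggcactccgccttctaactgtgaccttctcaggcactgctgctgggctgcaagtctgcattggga
Il21 (chr3:37232587-37232886, minus strand): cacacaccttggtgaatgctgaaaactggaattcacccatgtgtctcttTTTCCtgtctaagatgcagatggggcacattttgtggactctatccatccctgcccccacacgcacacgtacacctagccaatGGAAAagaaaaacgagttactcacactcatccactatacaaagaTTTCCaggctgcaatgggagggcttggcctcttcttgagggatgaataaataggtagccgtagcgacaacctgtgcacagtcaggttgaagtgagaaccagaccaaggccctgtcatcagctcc
Ifng (chr10:118440796-118441095, plus strand): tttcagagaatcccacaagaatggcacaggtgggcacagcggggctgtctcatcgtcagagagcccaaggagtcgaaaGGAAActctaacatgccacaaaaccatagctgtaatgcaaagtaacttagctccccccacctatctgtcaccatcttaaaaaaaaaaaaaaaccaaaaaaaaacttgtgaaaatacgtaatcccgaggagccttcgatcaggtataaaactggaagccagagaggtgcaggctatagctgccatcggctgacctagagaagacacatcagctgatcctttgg
Tnf (chr17:35201958-35202257, minus strand): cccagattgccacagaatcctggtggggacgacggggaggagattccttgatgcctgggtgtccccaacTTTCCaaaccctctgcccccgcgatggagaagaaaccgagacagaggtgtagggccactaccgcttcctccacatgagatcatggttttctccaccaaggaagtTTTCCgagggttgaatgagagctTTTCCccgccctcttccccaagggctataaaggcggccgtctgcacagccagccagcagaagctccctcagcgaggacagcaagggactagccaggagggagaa
The Tnfsf10 window has 1 match, Il21 has 3, Ifng has 1 and Tnf has 3. Of the 10 windows, only that of Tgfb1 has no GGAAA on either strand, and 61.3% of the 32851 mouse promoters of this length in the RefSeq table hold one. Neither the AP-1 motif TGANTCA (7.81% of all promoters), nor the T-box core GGTGTGA (3.98%), nor an interferon-stimulated response element core (3.44%) occurs in any of the 10 windows, searched on both strands. The response element core can overlap GGAAA. The RefSeq start lies 49 bases from the GENCODE start for Tnfsf10 and 232 bases for Csf2, and at the same base for Il21, Ifng and Tnf. These matches describe letters in short windows and were not linked to the expression values.

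Each captured RNA molecule is counted as a unique molecular identifier (UMI). After filters on genes per cell and mitochondrial UMIs, the day +7 library held 7179 cells (86745047 UMIs) and the day +14 library 7794 cells (83808218 UMIs), at medians of 9210 and 8144 UMIs per cell. Genes of the T cell receptor complex put 95.7% and 97.1% of these cells in a T cell gate. Foxp3-negative T cells with a Cd8a or Cd8b1 UMI and no Cd4 UMI (the CD8 gate) numbered 5756 and 5918, those with a Cd4 UMI and no CD8 UMI (the CD4 gate) 455 and 691, and T cells with a Foxp3 UMI, which marks regulatory T cells, 192 and 89. The CD4 gate was shallower at day +14, with a median of 5325 UMIs per cell, than at day +7, with 8291. NK cell genes were at 7.71 counts per 1000000 UMIs (CPM) in the CD8 gate at day +7 against 0.675 CPM at day +14, both at a small fraction of the T cell receptor genes, which were at 5994 and 7652 CPM. Erythroid genes amounted to 157 CPM in the CD4 gate at day +14 against 2.36 CPM at day +7, and 747 of those 778 UMIs came from 1 cell. Without cells of 10 or more erythroid UMIs, no day +14 over day +7 log2 ratio of the 10 genes in the CD4 or CD8 gate moved by more than 0.03. Of all barcodes, 20 occurred in both libraries. There is 1 library per day, so no test was made. Brackets hold 95% intervals, by the exact Poisson method for levels and by the Clopper-Pearson method for shares of cells and for ratios. They cover counting error only, not differences between mice or between libraries. Intervals of levels and ratios treat UMIs as independent, so they also leave out the spread between cells. They are too narrow for genes whose UMIs gather in few cells, such as Ifng and Csf2.

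The first question was how the levels of these ligands in CD8 cells compared between day +7 and day +14. Tnfsf10 and Il21 were past 2-fold higher at day +14, Tnf and Fasl were higher by less, and Ifng, Ltb and Tgfb1 lay within 0.15 of 0 on the log2 scale. In the CD8 gate 2 of the 10 genes were past 2-fold higher and 0 past 2-fold lower, whereas 2.11% of the 6825 genes that averaged 10 CPM or more were past 2-fold higher and 1.44% lower. Only 5 of the 10 genes reach 10 CPM, and of these 1, Tnfsf10, was past 2-fold. With the limit at 1 CPM, 5.60% of genes were past 2-fold higher. The median log2 ratio of all genes at 10 CPM or more was 0.19, that of the 10 genes was 0.18, and scaling by the median ratio lowered every value in this gate by 0.22. Over all kept cells 2 of the 10 genes, again Tnfsf10 and Il21, were past 2-fold higher and 0 lower, beside 2.11% and 1.39% of 6919 genes. Counted in UMIs per cell, both comparisons also had 2 higher and 0 lower, beside 1.73% and 1.61% of genes in the CD8 gate and 1.5% and 1.79% over all kept cells.

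**Figure D1:**
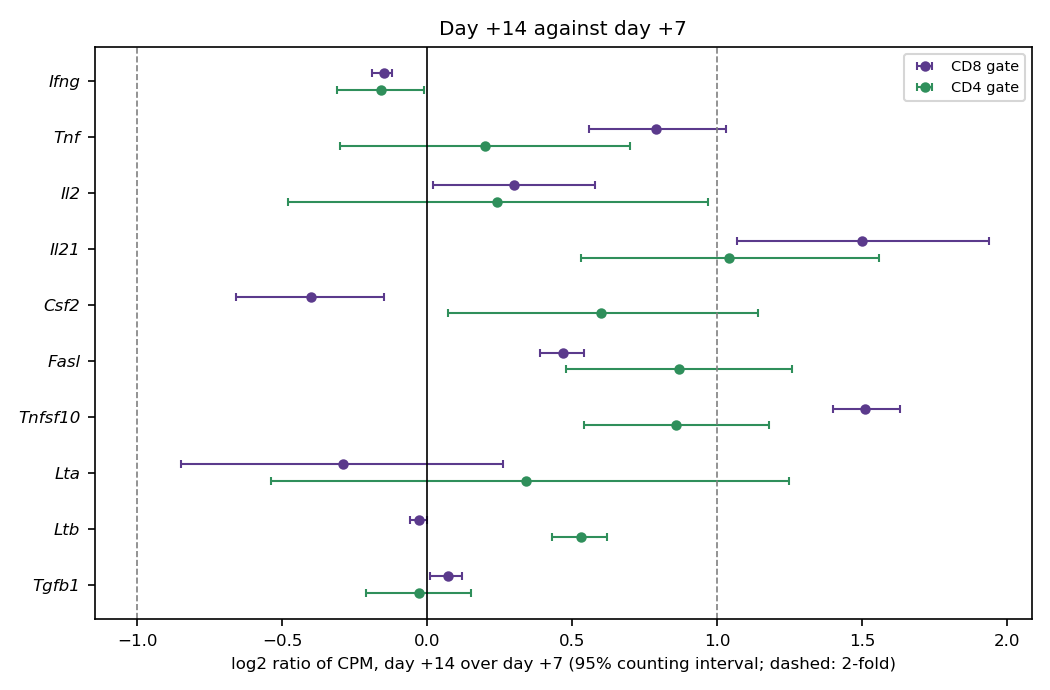
Log2 ratio of CPM at day +14 over day +7 for each gene (rows) in the CD8 gate and the CD4 gate, with 95% counting intervals and dashed lines at 2-fold. Tnfsf10 and Il21 lie past 2-fold in the CD8 gate, at 1.51 and 1.5, and Csf2 lies on opposite sides of 0 in the gates, at -0.40 and 0.60.

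Of the death ligands, Tnfsf10 went from 784 UMIs at day +7 to 2188 UMIs at day +14 in the CD8 gate. Its level was 11.8 CPM [10.9, 12.6] at day +7 against 33.6 CPM [32.2, 35.0] at day +14, for a log2 ratio of 1.51 [1.40, 1.63]. The difference was present in cycling CD8 cells, at 1.31 [1.16, 1.45], and in non-cycling CD8 cells, at 1.94 [1.72, 2.16], and relative to the median ratio of genes it was 1.30. Over 8 alternative settings the CD8 ratio ranged from 1.30 to 1.85. Without thinning, 638 CD8 cells (11.1%) had a Tnfsf10 UMI at day +7 and 1589 (26.9%) at day +14, with 1.23 and 1.38 UMIs per positive cell. When each cell was thinned to 4000 UMIs, the share was 3.92% [3.43, 4.46] of 5658 cells at day +7 and 13.6% [12.7, 14.6] of 5438 cells at day +14. Droplets of other lineages were set beside these shares. Erythroid droplets at day +7 held Tnfsf10 in 2.52% [0.523, 7.19] of 119 thinned droplets, so the day +7 share in CD8 cells is not distinguishable from that level, and neutrophil droplets held it in 1.69% [0.0429, 9.09] of 59 on each day. Macrophage droplets held it in 4.65% [1.28, 11.5] of 86 at day +7 and 13.7% [5.70, 26.3] of 51 at day +14, the latter close to the CD8 share. Median depths before thinning were 9198 UMIs in CD8 cells and 36554 UMIs in erythroid droplets at day +7, and 8572 UMIs in CD8 cells and 6525 UMIs in neutrophil droplets at day +14. Macrophage droplets had medians of 9517 and 11458 UMIs. These droplets also held the 6 T cell receptor genes, at 1580 CPM in erythroid, 4221 CPM in neutrophil and 4683 CPM in macrophage droplets at day +7, and at 1700, 2596 and 6839 CPM at day +14. The CD8 gate had 5994 and 7652 CPM, so macrophage droplets were nearest to T cells in T cell receptor transcripts and erythroid droplets farthest.

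Fasl was at 35.0 CPM [33.6, 36.4] in the CD8 gate at day +7 against 48.3 CPM [46.6, 50] at day +14, for a log2 ratio of 0.47 [0.39, 0.54]. This is below 2-fold, and relative to the median ratio it was 0.25. At 4000 UMIs the share of CD8 cells with a Fasl UMI was 14.4% [13.5, 15.4] at day +7 and 18.4% [17.3, 19.4] at day +14, above the 2.52% [0.523, 7.19] of erythroid droplets at day +7. Neutrophil droplets held Fasl in 6.78% [1.88, 16.5] and 3.39% [0.413, 11.7] and macrophage droplets in 12.8% [6.56, 21.7] and 13.7% [5.70, 26.3], and of these intervals only that of neutrophil droplets at day +14 lies below the CD8 share of its day. Both death ligands were higher at day +14, Tnfsf10 by the larger fold.

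Among the cytokines, Ifng had the most UMIs in CD8 cells, 11797 at day +7 and 10369 at day +14. Its level was 177 CPM [174, 180] at day +7 against 159 CPM [156, 162] at day +14, for a log2 ratio of -0.15 [-0.19, -0.12]. After thinning, 42.7% [41.4, 44.0] of CD8 cells had an Ifng UMI at day +7 and 38.5% [37.2, 39.8] at day +14. In erythroid droplets at day +7 this share was 7.56% [3.52, 13.9], in neutrophil droplets 13.6% [6.04, 25.0] on each day, and in macrophage droplets 37.2% [27.0, 48.3] and 39.2% [25.8, 53.9]. The intervals of macrophage droplets overlapped those of CD8 cells, and those of neutrophil droplets and of erythroid droplets at day +7 lay below.

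Tnf was at 3.60 CPM [3.16, 4.08] from 240 UMIs at day +7 against 6.23 CPM [5.64, 6.86] from 406 UMIs at day +14 in the CD8 gate. The log2 ratio was 0.79 [0.56, 1.03], short of 2-fold, with thinned shares of 1.29% [1.01, 1.62] and 2.10% [1.73, 2.51]. Erythroid droplets held Tnf in 1 of 119 (0.840%) at day +7, and neutrophil and macrophage droplets held it in 2.33% to 6.78% of droplets over both days, so the Tnf share of CD8 cells was not set apart from that of other lineages.

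Il21 was at 0.930 CPM [0.713, 1.19] at day +7, from 62 UMIs in 53 CD8 cells, and at 2.62 CPM [2.24, 3.05] at day +14, from 171 UMIs in 133 CD8 cells. The log2 ratio was 1.5 [1.07, 1.94], with a range of 1.28 to 1.87 over 8 alternatives. In non-cycling CD8 cells Il21 had 8 UMIs at day +7 and 43 at day +14, so that ratio, 2.80 [1.69, 4.10], rests on few molecules, and in cycling CD8 cells it was 1.11 [0.64, 1.60]. Thinned shares were 0.336% [0.202, 0.524] and 0.993% [0.747, 1.29]. No thinned erythroid droplet held Il21 (0 of 119, which allows a share of up to 2.52%), so these shares cannot be set apart from free RNA at this depth. Up to 6 UMIs of Il21 were found in a single CD8 cell at day +14, and 20 CD8 cells held at least 2.

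Il2 was at 2.92 CPM [2.53, 3.36] and 3.60 CPM [3.16, 4.10] in the CD8 gate, for a log2 ratio of 0.30 [0.02, 0.58] that falls to 0.08 relative to the median ratio. Nearly every Il2-positive CD8 cell held a single UMI: 189 of 192 at day +7 and 215 of 225 at day +14. The thinned shares of 1.34% [1.06, 1.68] and 1.32% [1.04, 1.66] lie under the 2.52% that 0 of 119 erythroid droplets allows, so they cannot be set apart from free RNA at this depth. Without thinning 3.79% of the deeper erythroid droplets and 3.34% of CD8 cells had an Il2 UMI at day +7, and the level in erythroid droplets was 1.5 CPM.

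Csf2 was at 4.54 CPM [4.05, 5.08] at day +7 against 3.44 CPM [3, 3.92] at day +14 in CD8 cells, for a log2 ratio of -0.40 [-0.66, -0.15]. It was lower at day +14 in cycling CD8 cells, at -0.95 [-1.30, -0.60]. In non-cycling CD8 cells the ratio was 0.44 [0.04, 0.84], but 1 cell held 48 of the 108 UMIs at day +14. The thinned share of non-cycling CD8 cells with a Csf2 UMI was not higher, at 1.79% [1.32, 2.37] at day +7 and 1.38% [0.932, 1.96] at day +14. Without the cell with the most UMIs on each day, the CD8 ratio was -0.61. As a ratio of mean CPM per cell it was -0.09, and with at least 2 coreceptor UMIs -0.79. The thinned Csf2 shares, 1.48% [1.19, 1.83] and 1.03% [0.779, 1.34], lie under the 2.52% that 0 of 119 erythroid droplets allows. These shares cannot be set apart from free RNA at this depth. Macrophage droplets held Csf2 in 0 of 86 at day +7 and 2 of 51 (3.92% [0.478, 13.5]) at day +14.

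Ltb and Tgfb1 were near the same level on both days, and the interval of Lta spans 0. Ltb was at 298 CPM [294, 302] and 292 CPM [288, 296] in the CD8 gate, for a log2 ratio of -0.03 [-0.06, 0.00]. Lta was at 0.960 CPM [0.739, 1.23] and 0.782 CPM [0.582, 1.03], from 64 and 51 UMIs, for a log2 ratio of -0.29 [-0.85, 0.26]. Its thinned shares, 0.389% [0.244, 0.588] and 0.331% [0.196, 0.523], lie under the 2.52% that 0 of 119 erythroid droplets allows. Tgfb1 was at 88.8 CPM [86.6, 91.1] and 93.0 CPM [90.6, 95.3], for a log2 ratio of 0.07 [0.01, 0.12] that turns to -0.15 relative to the median ratio. At 4000 UMIs, Ltb was detected in 60.2% [58.9, 61.5] and 59.9% [58.6, 61.3] of CD8 cells and Tgfb1 in 26.8% [25.6, 27.9] and 29.3% [28.1, 30.5]. Erythroid droplets at day +7 held Ltb in 15.1% [9.22, 22.8], below the CD8 share, and Tgfb1 in 36.1% [27.5, 45.4]. Ltb was found in 52.5% [39.1, 65.7] of neutrophil and 53.5% [42.4, 64.3] of macrophage droplets at day +7, which overlap the CD8 share, and in 35.6% [23.6, 49.1] and 47.1% [32.9, 61.5] at day +14.

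In the CD4 gate the same comparison rests on far fewer cells. 1 of the 10 genes, Il21, was past 2-fold higher at day +14 and 0 past 2-fold lower, where 4.22% of 6984 genes were past 2-fold higher and 1.23% lower. Il21 was at 10.3 CPM [7.58, 13.6] from 48 UMIs at day +7 against 21.1 CPM [17.3, 25.6] from 105 UMIs at day +14. Its log2 ratio of 1.04 [0.53, 1.56] stands at the limit of the call, at 0.94 relative to the median ratio, 0.92 with a mitochondrial limit of 5%, 0.53 in UMIs per cell and 0.19 where at least 2 Cd4 UMIs were required. Fasl went from 18.4 CPM [14.7, 22.7] to 33.6 CPM [28.7, 39.1], for a log2 ratio of 0.87 [0.48, 1.26]. Tnfsf10 went from 27.2 CPM [22.7, 32.4] to 49.3 CPM [43.3, 55.9], for a log2 ratio of 0.86 [0.54, 1.18]. Ltb was at 324 CPM [308, 341] and 466 CPM [448, 486], for a log2 ratio of 0.53 [0.43, 0.62]. Since CD4 cells were shallower at day +14, UMIs per cell gave smaller values, 0.35 for Fasl, 0.35 for Tnfsf10 and 0.01 for Ltb. Ifng in the CD4 gate was at 161 CPM [150, 173] and 144 CPM [134, 155], a log2 ratio of -0.16 that was -0.67 in UMIs per cell, from 1.65 to 1.04, and Tgfb1 stood at -0.03 in CPM and -0.54 per cell. On the per-cell scale 0 of the 10 genes were past 2-fold in either direction, beside 1.45% of genes higher and 3.99% lower. The counting intervals of Tnf, Il2, Lta and Tgfb1 span 0 in this gate.

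The CD4 and CD8 gates of a library share chemistry and sequencing, and were compared within each day. The helper cytokine Il21, the lymphotoxin Lta, Tnf, Csf2 and Il2 were past 2-fold higher in CD4 cells on both days, Tnfsf10 at day +7 alone, and no member was past 2-fold lower, all in CPM. At day +7, 6 of the 10 genes were past 2-fold higher and 0 lower in CD4 cells, beside 1.5% and 0.879% of 6601 genes. At day +14, 5 were past 2-fold higher and 0 lower, beside 2.86% and 0.820% of 7198 genes. Most of these are low genes, and of the members that averaged 10 CPM or more, 1 of 5 was past 2-fold higher at day +7 and 2 of 7 at day +14. With the limit at 1 CPM the share of all genes past 2-fold higher was 3.89% at day +7 and 6.87% at day +14. In UMIs per cell, 6 were past 2-fold higher and 1 lower at day +7, beside 1.11% and 1.17% of genes, and 3 higher and 1 lower at day +14, beside 1.15% and 8.39%. The gene past 2-fold lower per cell was Fasl on both days, and Tnf and Il2 lost their calls at day +14, at 0.70 and 0.51.

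**Figure D2:**
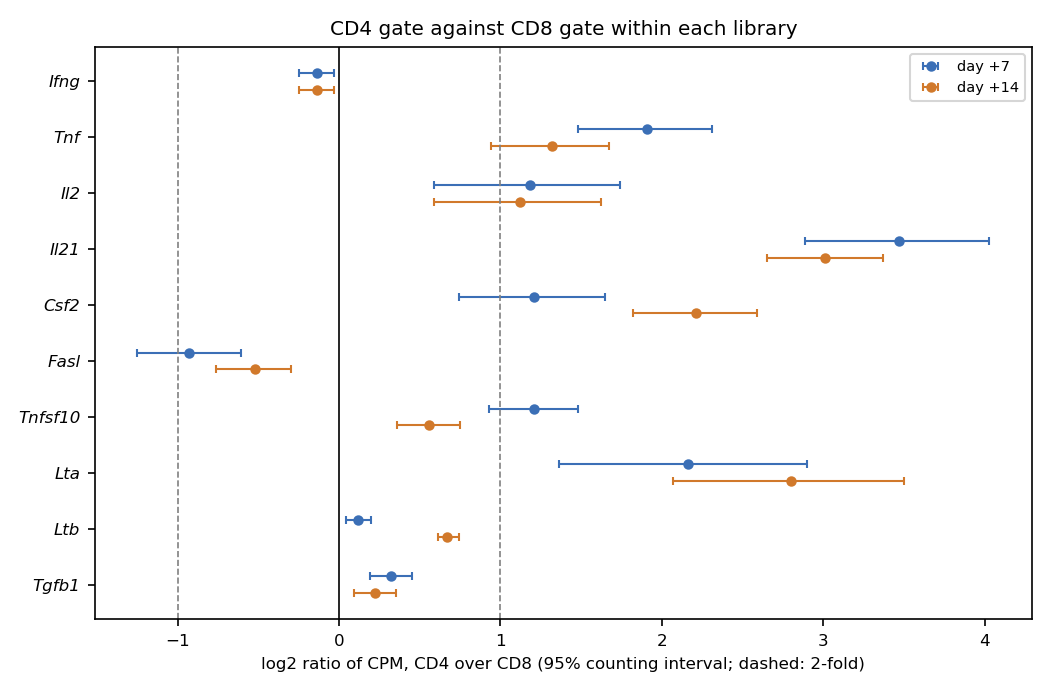
Log2 ratio of CPM in the CD4 gate over the CD8 gate for each gene (rows) within the day +7 and the day +14 library, with 95% counting intervals and dashed lines at 2-fold. Il21 lies at 3.47 and 3.01, Fasl lies below 0 on both days, at -0.93 and -0.52, and Ifng lies at -0.14 on both.

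Il21 was at 10.3 CPM in CD4 cells and 0.930 CPM in CD8 cells at day +7, 11.1-fold apart [7.42, 16.4], and at 21.1 CPM and 2.62 CPM at day +14, 8.06-fold apart [6.26, 10.3]. After thinning, 3.39% [1.91, 5.54] of 442 CD4 cells at day +7 and 6.90% [4.82, 9.50] of 493 at day +14 had an Il21 UMI. Lta was at 4.28 CPM [2.62, 6.62] in CD4 cells at day +7, from 20 UMIs, and 5.43 CPM [3.58, 7.91] at day +14, from 27 UMIs, with log2 ratios over CD8 cells of 2.16 [1.36, 2.90] and 2.80 [2.07, 3.50].

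Tnf was at 13.5 CPM [10.4, 17.3] and 15.5 CPM [12.2, 19.4] in the CD4 gate. Its CD4 over CD8 log2 ratio was 1.91 [1.48, 2.31] at day +7 and 1.32 [0.94, 1.67] at day +14, and thinned CD4 shares were 5.43% [3.51, 7.97] and 6.29% [4.31, 8.81]. Neutrophil droplets held Tnf in 6.78% [1.88, 16.5] and 3.39% [0.413, 11.7], and macrophage droplets in 2.33% [0.283, 8.15] and 3.92% [0.478, 13.5]. These intervals overlap those of CD4 cells, so the Tnf share of CD4 cells was not set apart from that of other lineages. Csf2 was at 10.5 CPM [7.76, 13.9] and 15.9 CPM [12.6, 19.8] in CD4 cells, with log2 ratios of 1.21 [0.74, 1.65] and 2.21 [1.82, 2.59]. At day +14 the 2 CD4 cells with 20 and 16 Csf2 UMIs held 45.6% of the Csf2 UMIs of the gate.

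Il2 was at 6.64 CPM [4.51, 9.42] from 31 UMIs in CD4 cells at day +7, of which 1 cell held 7, and at 7.85 CPM [5.58, 10.7] from 39 UMIs at day +14. Its log2 ratios of 1.18 [0.59, 1.74] and 1.12 [0.59, 1.62] went below 2-fold under 1 of 9 alternatives at day +7 and 2 of 9 at day +14. Tnfsf10 was 1.21 [0.93, 1.48] higher in CD4 cells at day +7 and 0.56 [0.36, 0.75] at day +14, and in UMIs per cell the day +14 value was -0.06. The thinned CD4 shares of Il2, 1.36% [0.5, 2.93] and 2.84% [1.56, 4.72], and of Lta, 1.36% [0.5, 2.93] and 2.64% [1.41, 4.47], have intervals that reach below the 2.52% that 0 of 119 erythroid droplets allows. The intervals of Csf2, 2.26% [1.09, 4.12] and 3.04% [1.71, 4.97], and of Il21 at day +7, 3.39% [1.91, 5.54], do so too. That of Il21 at day +14, 6.90% [4.82, 9.50], lies above this limit, which comes from the day +7 library. At day +14, 0 of 59 neutrophil droplets allows up to 5.08%, 0 of 51 macrophage droplets 5.88% and 0 of 11 erythroid droplets 27.3%. The Il21 share of day +14 therefore cannot be set apart from free RNA within its own library.

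Fasl was lower in CD4 cells on both days, by log2 ratios of -0.93 [-1.25, -0.61] and -0.52 [-0.76, -0.30], and in UMIs per cell it was past 2-fold lower, at -1.10 and -1.14. Its thinned CD4 share was 8.60% [6.16, 11.6] and 11% [8.34, 14.0]. Ifng stood at -0.14 [-0.25, -0.03] on both days, and at -0.31 and -0.76 per cell, with 1.04 UMIs in a CD4 cell and 1.75 in a CD8 cell at day +14. Ltb was at 0.12 [0.04, 0.20] and 0.67 [0.61, 0.74] and Tgfb1 at 0.32 [0.19, 0.45] and 0.22 [0.09, 0.35], all short of 2-fold. In UMIs per cell the Ltb values were -0.05 and 0.06 and those of Tgfb1 0.14 and -0.39.

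Foxp3+ cells were set beside the Foxp3-negative CD4 gate. The Foxp3+ gate had no coreceptor rule, so cells with CD8 UMIs could enter it, and their part in these values was not tested. Ltb was higher and the helper cytokines Il21 and Csf2 were lower in Foxp3+ cells than in the CD4 gate. Beside the CD8 gate, Foxp3+ cells had Il21 at 0.768 against 0.930 CPM at day +7 and 3.82 against 2.62 CPM at day +14. Csf2 was at 3.84 against 4.54 CPM and at 2.86 against 3.44 CPM. Ltb reached 736 CPM [703, 770] in Foxp3+ cells at day +7 against 324 CPM in CD4 cells, for a log2 ratio of 1.18 [1.09, 1.28], and 583 CPM [538, 631] at day +14 against 466 CPM, for a log2 ratio of 0.32 [0.19, 0.45]. After thinning, 85.0% [79.1, 89.8] of 187 Foxp3+ cells at day +7 and 80.5% [69.9, 88.7] of 77 at day +14 had an Ltb UMI. In non-cycling Foxp3+ cells Ltb was at 1126 CPM [1058, 1196] at day +7 against 839 CPM [730, 959] at day +14. Il21 had 2 UMIs in Foxp3+ cells at day +7 and 4 at day +14, with log2 ratios against CD4 cells of -3.74 [-6.83, -1.81] and -2.47 [-4.37, -1.07]. Csf2 had 10 and 3 UMIs, with log2 ratios of -1.45 [-2.60, -0.45] and -2.47 [-4.78, -0.87]. Tnf was at 4.22 CPM [2.11, 7.56] at day +7, for a log2 ratio of -1.68 [-2.75, -0.74], and at 12.4 CPM [6.61, 21.2] at day +14, a ratio of -0.32 [-1.29, 0.54]. Il2, which regulatory T cells do not make in quantity, had 6 UMIs at day +7 and none at day +14, where 3 counts would be 2.86 CPM. Ifng in Foxp3+ cells was at 134 CPM [120, 149] and 107 CPM [88.0, 129], and Tgfb1 at 107 CPM [95, 120] and 123 CPM [103, 146], with log2 ratios against CD4 cells of -0.05 [-0.26, 0.17] and 0.18 [-0.11, 0.46].

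**Figure D3:**
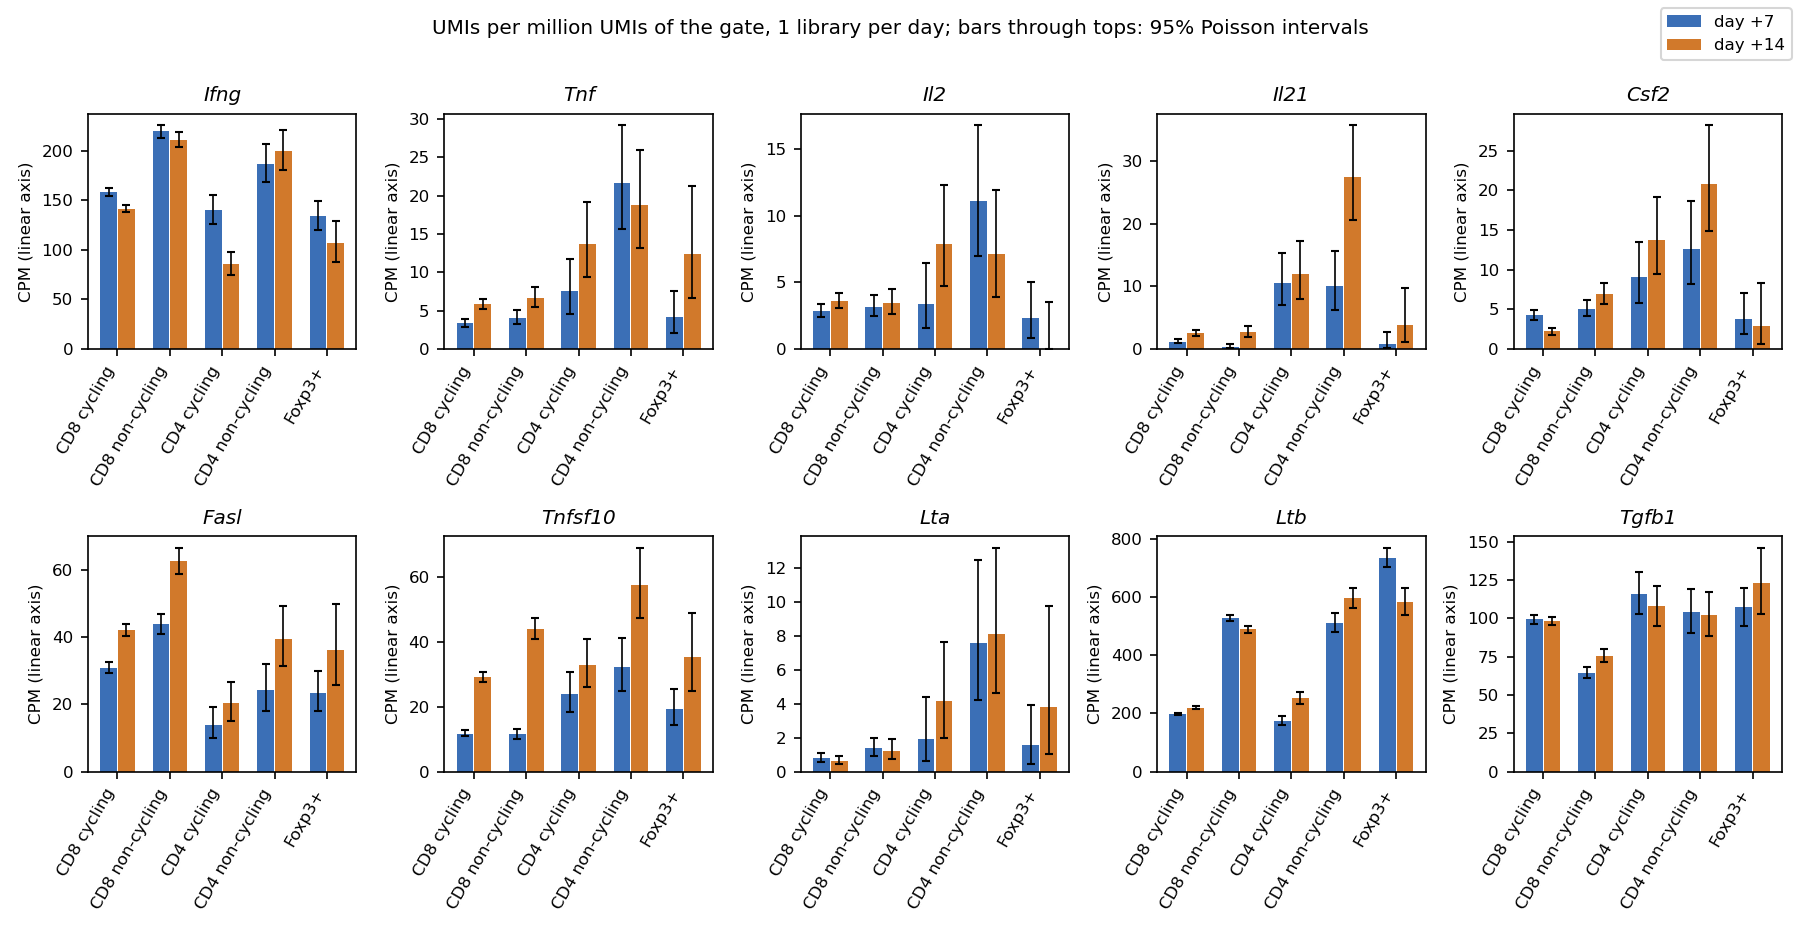
CPM of each gene (panels, linear axes that start at 0) in cycling and non-cycling CD8 cells, cycling and non-cycling CD4 cells and Foxp3+ cells, at day +7 and day +14, with 95% Poisson intervals as error bars. Ltb is lower in cycling than in non-cycling cells of both lineages and highest in Foxp3+ cells at day +7, at 736 CPM, and Tnfsf10 is higher at day +14 in every gate shown.

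Cycling CD8 cells were those with a UMI of at least 3 of 10 cell cycle genes after thinning to 4000 UMIs. They held more RNA than non-cycling cells, with medians of 13252 against 6951 UMIs at day +7 and 12618 against 6112 at day +14, so values are given both in CPM and in UMIs per cell. Ltb was the member past 2-fold lower in cycling cells on both days, and Tgfb1 was higher on both scales. At day +7, 1 of the 10 genes was past 2-fold higher, beside 6.81% of 6509 genes, and 1 was past 2-fold lower, beside 1.24%. At day +14, 0 were past 2-fold higher, beside 5.28% of 7021 genes, and 2 were past 2-fold lower, beside 1.27%. These counts are in CPM. In UMIs per cell, 3 were past 2-fold higher at day +7 (Il21, Tgfb1 and Tnfsf10) and 2 at day +14 (Il2 and Tgfb1), with 0 lower on either day, beside 55.0% and 57.5% of genes higher and 0.0615% and 0.0427% lower.

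Ltb was at 197 CPM [193, 201] in cycling and 527 CPM [517, 537] in non-cycling CD8 cells at day +7, for a log2 ratio of -1.42 [-1.46, -1.38]. At day +14 it was at 220 CPM [216, 224] and 489 CPM [478, 500], for a log2 ratio of -1.15 [-1.20, -1.11]. In UMIs per cell the difference was smaller, 3 against 4.06 at day +7 (-0.44) and 3.25 against 3.51 at day +14 (-0.11). The share of thinned cells with an Ltb UMI was 47.6% [45.8, 49.4] in cycling and 74.8% [73.1, 76.4] in non-cycling cells at day +7, and 50.9% [49.1, 52.6] and 73.6% [71.7, 75.4] at day +14. Cycling CD4 cells likewise had lower Ltb in CPM than non-cycling ones, by -1.56 [-1.72, -1.39] at day +7 and -1.24 [-1.38, -1.10] at day +14.

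Tgfb1 was at 99.2 CPM in cycling and 64.4 CPM in non-cycling CD8 cells at day +7, for a log2 ratio of 0.62 [0.53, 0.71], and at 98.2 CPM and 75.6 CPM at day +14, a ratio of 0.38 [0.29, 0.47]. Per cell the ratios were 1.61 and 1.42.

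For Ifng and Fasl the scale decided the direction. Ifng was at 158 CPM in cycling and 220 CPM in non-cycling CD8 cells at day +7, for a log2 ratio of -0.48 [-0.53, -0.42], but a cycling cell held 2.40 UMIs and a non-cycling cell 1.69, a ratio of 0.51. At day +14 the log2 ratios were -0.58 [-0.64, -0.52] in CPM and 0.46 per cell. Fasl stood at -0.51 [-0.63, -0.39] in CPM and 0.47 per cell at day +7, and at -0.58 [-0.69, -0.46] and 0.46 at day +14. Tnfsf10 was level in CPM at day +7, at 0.03 [-0.19, 0.26], though 1.02 per cell, and lower in CPM in cycling cells at day +14, at -0.60 [-0.73, -0.47], though 0.44 per cell.

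The 2 other calls rest on few molecules or few cells. Il21 was 1.56 [0.48, 2.85] higher in cycling cells at day +7, from 54 against 8 UMIs, and at -0.12 [-0.63, 0.42] at day +14. Csf2 was at -1.64 [-2.04, -1.24] at day +14, and at -0.87 without the cells with the most UMIs. Intervals of Tnf and Il2 spanned 0 on both days, and Lta, from 19 to 36 UMIs a gate, stood at -0.83 [-1.58, -0.06] and -0.92 [-1.79, -0.01]. Per cell these ratios were 2.55 and 0.92 for Il21, 0.73 and -0.60 for Csf2, 0.69 and 0.85 for Tnf, 0.82 and 1.10 for Il2, and 0.15 and 0.12 for Lta. Of these only Csf2 at day +14 was lower in cycling cells on that scale.

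How evenly each transcript was spread over cells was then described by the variance over the mean of UMIs per cell, which is 1 where molecules fall on cells at random and at equal depth. Ifng and Csf2 stood far above 1, Il2 in CD8 cells at 1, and Fasl and Tnfsf10 little above it. Values differ with depth between cells as well as with expression.

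**Figure D4:**
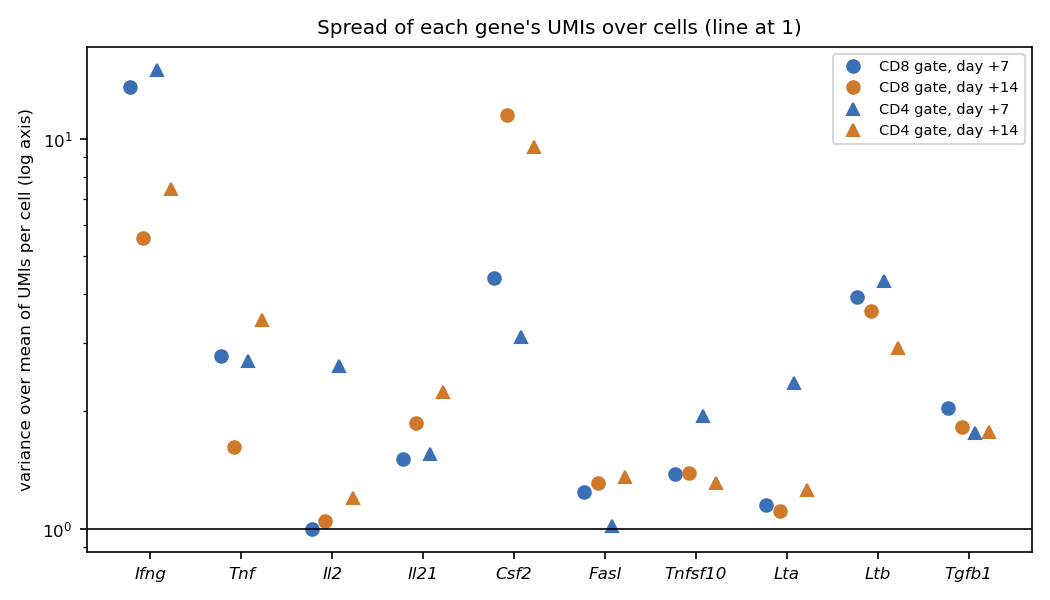
Variance over mean of UMIs per cell (log axis) for each gene in the CD8 gate (circles) and the CD4 gate (triangles) at both days, with a line at 1. Ifng reaches 13.6 and Csf2 11.5 in CD8 cells, whereas Il2 lies at 0.997 and 1.05.

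In the CD8 gate at day +7 the variance over mean of Ifng was 13.6, and 143 cells with 10 or more UMIs held 21.9% of its UMIs. The highest cells had 242, 193 and 101 Ifng UMIs. The cell with 242 held 20149 UMIs in all and also 435 Ccl4 and 106 Ccl3 UMIs, and the cell with 193, of only 7658 UMIs in all, held 371 Xcl1 UMIs (Ccl3, Ccl4 and Xcl1 encode chemokines of activated T cells). At day +14 the value was 5.55, with 50 UMIs in the highest CD8 cell, and 150 cells with 10 or more UMIs held 22.7% of the Ifng UMIs. A cell outside the CD4 and CD8 gates, with UMIs of both coreceptors, held 272 Ifng UMIs at day +14 beside 405 Xcl1 UMIs. Neither Ncr1 nor Klrb1c, which mark NK cells, had a UMI in any of these 4 cells. Over the whole T cell gate, which includes the cell with 272 Ifng UMIs, the variance over mean of Ifng was 13.1 at day +7 and 11.5 at day +14.

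Csf2 had a variance over mean of 4.39 at day +7, where the highest CD8 cell held 28 of 303 UMIs, and 11.5 at day +14, where 1 cell held 48 of 224 and the next 6. That cell had 19 Ifng, 75 Ccl3 and 71 Xcl1 UMIs, and 1 Tnf UMI. In the CD4 gate at day +14 a single cell held the most Tnf UMIs of that library, 12, together with 33 Ifng, 20 Csf2, 7 Il21 and 1 Il2 UMIs. Tnf in CD8 cells stood at 2.78 and 1.62, with 19 of its 240 UMIs in 1 cell at day +7. Fasl stood at 1.24 and 1.31 and Tnfsf10 at 1.38 and 1.39 in CD8 cells, with at most 10 Fasl and 6 Tnfsf10 UMIs in any 1 of them. Ltb stood at 3.92 and 3.61 and Tgfb1 at 2.04 and 1.82.

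Co-detection of the members was counted in the same thinned CD8 cells, as the number of cells with a UMI of both genes over the number expected if the genes were independent. Of the 28 pairs with at least 5 cells expected on both days, 4 were at 1.2 or more on both: Ifng with Tnf, Ifng with Il21, Tnf with Ltb and Lta with Ltb. With the expected number taken within cycling and non-cycling cells, 3 of 27 pairs remained, without Tnf and Ltb (1.17 at day +7). The ratios of the other pairs were below 1.2 on at least 1 day, and the pairs share genes and cells. Pairs of genes outside the members were not counted, so no share stands beside the 4 of 28. Ifng with Il21 rests on 10 cells against 8.11 expected at day +7 and 26 against 20.8 at day +14. The Ifng shares of Il21-positive cells, 52.6% [28.9, 75.6] and 48.1% [34.3, 62.2], overlap those of Il21-negative cells, 42.7% [41.4, 44.0] and 38.4% [37.1, 39.7].

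**Figure D5:**
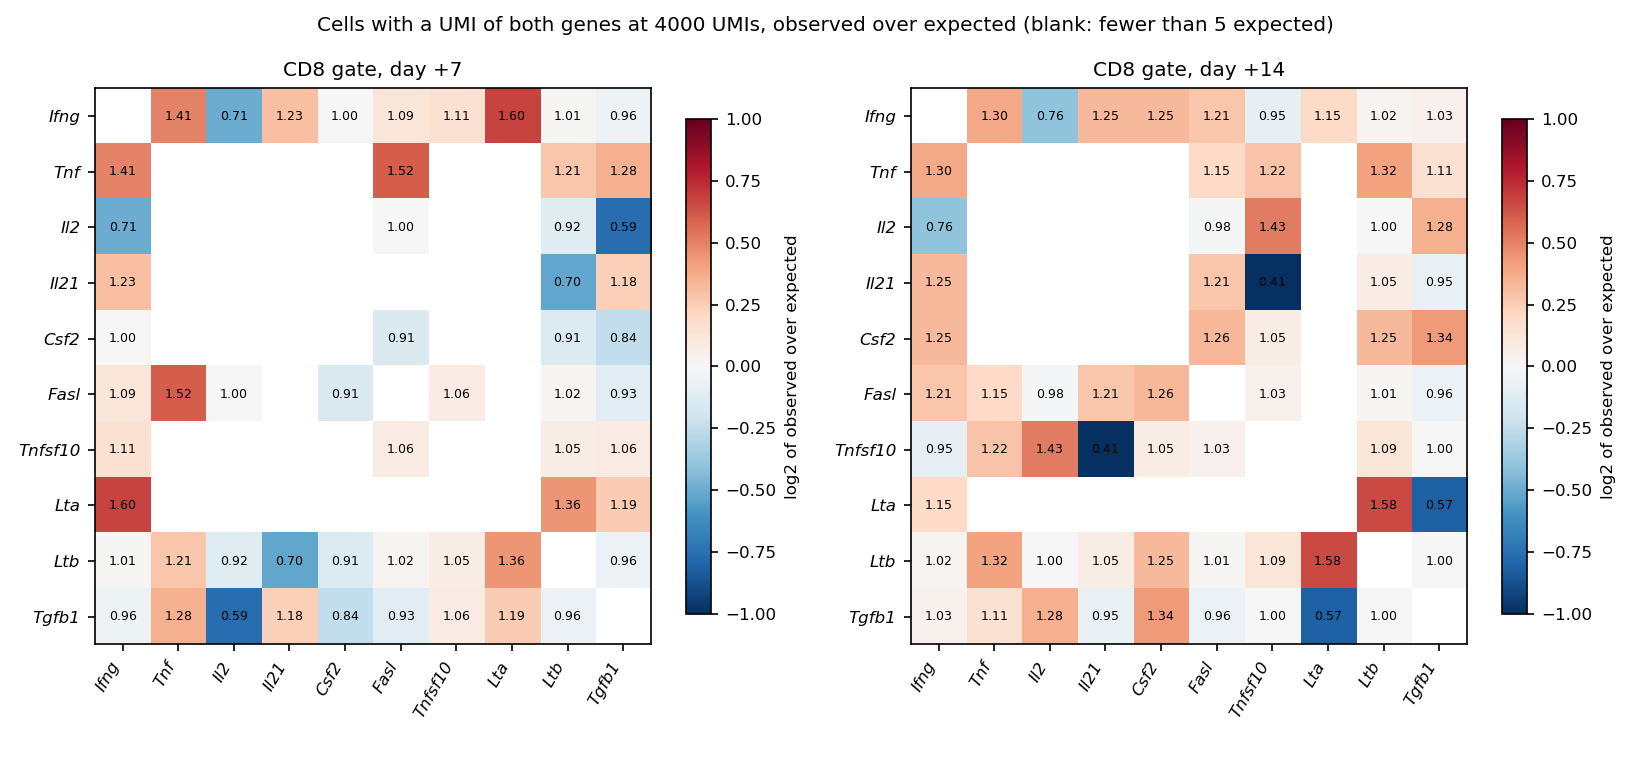
Observed over expected number of CD8 cells with a UMI of both genes at 4000 UMIs, for pairs with at least 5 cells expected, at day +7 (left) and day +14 (right); color gives the log2 of the printed ratio. Ifng with Tnf stands at 1.41 and 1.30, and Ifng with Il2 at 0.709 and 0.758.

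Ifng was detected in 60.3% [48.1, 71.5] of 73 Tnf-positive CD8 cells and 42.5% [41.2, 43.8] of Tnf-negative ones at day +7, and in 50% [40.5, 59.5] of 114 and 38.2% of the others at day +14. In cells with both, 44 were observed against 31.2 expected at day +7 and 57 against 43.9 at day +14. Among Fasl-positive CD8 cells 46.5% [43.0, 50] had Ifng at day +7 and 46.5% [43.4, 49.6] at day +14, against 42.1% and 36.7% of Fasl-negative cells. Among Il2-positive CD8 cells, 30.3% [20.2, 41.9] of 76 at day +7 and 29.2% [19.0, 41.1] of 72 at day +14 had Ifng, against 42.9% [41.6, 44.2] and 38.6% [37.3, 39.9] of Il2-negative cells, and these intervals overlap on both days. Ltb was present in 18 of 22 Lta-positive CD8 cells at day +7, where 13.2 were expected. The Ltb shares of Lta-positive and Lta-negative cells, 81.8% [59.7, 94.8] and 60.1% [58.8, 61.4], have overlapping intervals at day +7. At day +14 Ltb was present in 17 of 18 Lta-positive cells, beside 59.9% of all thinned CD8 cells. Both death ligands were found in 34 cells against 32.1 expected at day +7 and in 140 against 136 at day +14, close to independence.

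At least 2 of the 6 transcripts Ifng, Tnf, Il2, Il21, Csf2 and Lta were detected in 126 of 5658 CD8 cells (2.23% [1.86, 2.65]) at day +7, where 118 were expected from the single shares, and in 139 of 5438 (2.56% [2.15, 3.01]) at day +14, where 122 were expected. In CD4 cells this was 26 of 442 (5.88% [3.88, 8.50]) at day +7, with 22.5 expected, and 37 of 493 (7.51% [5.34, 10.2]) at day +14, with 35.7 expected. None of the 6 was detected in 54.7% and 58.4% of CD8 cells.

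Other genes were ranked by their CPM in member-positive over member-negative CD8 cells, by the smaller of the ratios on the 2 days. Chemokine genes led for Ifng, Tnf, Fasl and, in part, Csf2, and cell cycle-linked histone genes for Tgfb1. Ifng-positive cells had Ccl4 at 489 CPM at day +7 against 980 CPM at day +14, with log2 ratios over negative cells of 2.05 [1.97, 2.13] and 2.02 [1.96, 2.08], followed by Ccl3 at 1.78 and 1.85 and Rgs1, a regulator of G protein signaling, at 0.54 and 0.48. Tnf-positive cells were led by Xcl1, at 3.43 [3.08, 3.76] and 2.36 [2.16, 2.56], then Ccl4 and Ccl3. In Fasl-positive cells Ccl3 stood at 1.06 and 1.02, Ccl4 at 1.52 and 1.01 and the interferon-inducible Ifi209 at 0.61 and 0.52. Csf2-positive cells were led by Ccl1, but its 48 UMIs at day +14 all came from 1 cell, followed by Ccl4 at 2.52 and 1.41 and Hspbp1 from 20 and 13 UMIs. In Il2-positive cells the first gene, Ifitm1, had 37 UMIs in 1 cell at day +14, and Scamp3 and Sp3os rested on 17 to 36 UMIs. Ltb-positive cells had higher Ypel3 at 0.72 and 0.78, Btg1, which restrains proliferation, at 0.64 and 0.69, and Serpina3g at 0.74 and 0.60. Tgfb1-positive cells had higher histone transcripts Hist1h2ap at 0.53 and 0.46, Hist1h1b at 0.52 and 0.42, and Hist2h2ac at 0.49 and 0.42. For Tnfsf10 the leading genes, 9930111J21Rik2, Tsix and Gm12840, were between 0.36 and 0.65 on each day. Il21 and Lta had under 50 positive cells on at least 1 day and were not ranked.

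Across 10 groups (5 gates on 2 days), the genes whose level was most like that of a member were Il18r1, a subunit of the IL-18 receptor, mt-Co1 and Ech1 for Ifng (Pearson r of log2 CPM 0.963, 0.947 and 0.940). They were Ccl5, Ctsd and Cblb for Fasl (0.959, 0.955 and 0.951), Rasa1, Phf23 and Hipk2 for Tnfsf10 (0.968, 0.964 and 0.962), Plaat3, Rnaset2a and Arid4b for Ltb (0.972, 0.969 and 0.951), and Larp1b, Adk and Ube2d2a for Tgfb1 (0.939, 0.920 and 0.919). These are the highest of 6923 genes over 10 groups from 2 libraries that share depth and cell cycle composition, and are given as a description.

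Genes around these ligands were described by lists, for which members were chosen with earlier results of these data known. Of 18 receptor genes, 9 had at least 10 CPM in the CD8 gate, of which 3 were past 2-fold higher and 1 lower at day +14, with a median log2 ratio of 0.63. Of all 6825 genes at that level in the CD8 gate, 2.11% were past 2-fold higher and 1.44% lower, with a median of 0.19. Fas, the receptor of Fas ligand, went from 11.3 CPM to 41.8 CPM (1.89 [1.77, 2.01]) and Tnfrsf1a, a TNF receptor, from 8.04 CPM to 17.9 CPM (1.16 [1.01, 1.31]), whereas Il2ra, the alpha chain of the IL-2 receptor, went from 36.9 CPM to 5.18 CPM (-2.83 [-3, -2.67]) and Il2rg from 196 CPM to 151 CPM (-0.37 [-0.41, -0.33]). The third receptor past 2-fold higher was Il21r, the IL-21 receptor, at 1.06, which was named after its value was seen. Among 14 cytokine transcription factors in CD8 cells, 1 was past 2-fold higher, Eomes, from 21.7 CPM to 91.1 CPM (2.07 [1.99, 2.15]), and 1 lower, Fos, from 15.3 CPM to 7.16 CPM (-1.10 [-1.26, -0.94]), beside Tbx21, which drives Ifng, at -0.58 [-0.65, -0.51]. Of 10 death receptor signaling genes, 9 had at least 10 CPM in CD8 cells and 0 were past 2-fold, with Birc3 at 0.75 and Tradd at -0.30 as the ends. Of 9 genes of cytokine mRNA decay, 8 were measured at that level and 2 were past 2-fold higher, Zfp36l1 at 1.02 and Rc3h2 at 1.00, while Zfp36 stood at -0.46. Of 15 interferon-gamma targets, 10 were measured at that level in CD8 cells and 0 were past 2-fold, with a median of 0.48, Tap1 at 0.68 and Socs1 at -0.14. In the CD4 gate 4 of 13 were past 2-fold higher, beside 4.22% of all 6984 genes at that level. The 4 included Iigp1, from 6.85 CPM to 35.0 CPM (2.35 [1.80, 2.95]), and Cxcl10, from 6.00 CPM to 23.3 CPM (1.96 [1.36, 2.61]). Of 7 genes of TGF-β activation, 2 were measured at that level, with Itgav past 2-fold higher in CD8 cells (1.12 [1.00, 1.23]) and Furin at -0.96 [-1.07, -0.84].

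Of 22 other cytokines and TNF family ligands, 1, Tnfsf9, reached 10 CPM in the comparison of the days in CD8 cells, at -0.01 [-0.16, 0.13]. Between CD4 and CD8 cells, 4 of 6 at day +7 and 5 of 7 at day +14 were past 2-fold higher in CD4 cells. Of all genes at that level, 1.5% of 6601 and 2.86% of 7198 were past 2-fold higher. These calls are in CPM, and values in UMIs per cell are not given for the lists. At day +14 the CD4 gate was the shallower, at a median of 5325 against 8572 UMIs per cell. Cd40lg, the helper ligand CD40L, was at 97.4 CPM in CD4 and 4.20 CPM in CD8 cells at day +7 (4.54 [4.32, 4.76]) and at 82.9 CPM and 1.75 CPM at day +14 (5.57 [5.26, 5.88]). Tnfsf11 was at 26.0 CPM in CD4 and 1.35 CPM in CD8 cells at day +14 (4.27 [3.86, 4.67]). Il13, which is 1 of the 4 at day +7, had 141 UMIs in the CD4 gate on that day, of which 1 cell held 116. It had none in that gate at day +14.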

How the data were processed

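The deposited files hold UMI counts, whole numbers of captured molecules per gene and cell barcode, with no normalization. The authors made these counts with Cell Ranger 6.1.2 on the mm10 genome, per the labels, and whether 3′ or 5′ ends were captured is not given in the sources used here. Donor T cells sorted at day +7 and day +14 gave 1 library each, of 86745047 and 83808218 UMIs after filters, so no value has replicate error.

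Barcodes with 500 to 7500 genes and at most 15% mitochondrial UMIs were kept. T cells had a UMI of at least 2 of 6 T cell receptor genes and did not pass the rule for erythroid, neutrophil, macrophage or B cell droplets. Scrublet (Scanpy 1.11.5) marked 0 barcodes and was taken as not having worked, so no doublets were removed, and an alternative left out the 433 and 518 highest scores. UMIs were summed per library and gate and given per 1000000 UMIs of that gate (CPM), and ratios had exact conditional binomial intervals at 95%. A call was a ratio past 2-fold, set beside all genes that averaged 10 CPM or more. Shares used cells thinned to 4000 UMIs (random seed 7), which left out 198 and 969 shallower cells of all those kept. CPM share a total, so a level is relative to the other RNA of the same cells. Scripts ran in Python 3.11.15 with NumPy 2.4.6, SciPy 1.17.1 and pandas 2.3.3, and were tested on simulated data. Columns of samples not used numbered 0.

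The members, lists and gates were chosen with earlier results of these data known. All 10 members were named. Other genes named were the 2 highest and 2 lowest ratios of each list, the 3 genes with the highest ratio in member-positive over member-negative CD8 cells (at 50 CPM or more, for members with at least 50 positive cells on both days), and the 3 genes with the most similar levels over 10 groups. Alternatives were another scaling, means over cells, UMIs per cell, leaving out the highest cell, other gate, mitochondrial and fold limits, and another thinning depth.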

Additional observations from a re-analysis of the deposited data

Results flagged for a closer look

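The ratio of day +14 over day +7 had opposite signs in the CD8 and CD4 gates for 4 of the 10 genes, with 1 library per day, so these differences were not tested. The share of all genes with opposite signs is not given here, so the 4 of 10 has no background beside it. Csf2 stood at -0.40 in CD8 cells and 0.60 in CD4 cells on the log2 scale, and both counting intervals exclude 0. However, 2 CD4 cells with 20 and 16 Csf2 UMIs held 45.6% of the 79 UMIs of that gate at day +14. The CD4 value therefore rests in large part on these cells. In UMIs per cell the CD4 value of Csf2 was 0.09. Lta stood at -0.29 in CD8 cells and 0.34 in CD4 cells, with intervals that span 0 in both. Ltb stood at -0.03 in CD8 cells, where the interval reaches 0.00, and at 0.53 in CD4 cells, where the value in UMIs per cell was 0.01. Tgfb1 stood at 0.07 in CD8 cells and -0.03 in CD4 cells, where the interval spans 0.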

How the results depend on the processing

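Of 590 alternative values of the ratios, 509 moved by less than their counting interval and 81 by more, and none of the called ratios changed sign. The genes past 2-fold between the days in the CD4 gate numbered 1, and became 0 with scaling by the median ratio of genes, 0 with a mitochondrial limit of 5%, 0 with at least 2 UMIs of the coreceptor, 3 with means over cells of CPM per cell and 4 with a fold of 1.5. Between cycling and non-cycling CD8 cells, 2 genes were past 2-fold on each day and 4 on each day with a fold of 1.5. At day +14 this count was 1 without the cell with the most UMIs and 1 with at least 2 UMIs of the coreceptor. Shares of all genes at a fold of 1.5 or under these other settings are not given, so these counts have no background beside them. The 4 pairs of genes detected together at 1.2 or more on both days became 2 with the highest Scrublet scores left out and 1 with thinning to 2000 UMIs. The cause was not tested in any of these. In all, 70 of 81 counts stayed within 1.5 times. Of 20 Foxp3+ levels, 18 stayed within their interval with at least 2 Foxp3 UMIs. All 20 of the 120 shares that moved did so with thinning to 2000 UMIs. The background shares moved in 13 of 14 comparisons where genes down to 1 CPM entered. Chosen after seeing the data were leaving out the cell with the most UMIs, UMIs per cell, expected pairs within cycling and non-cycling cells, median-ratio scaling of the cycling comparison and leaving out cells of 10 or more erythroid UMIs. No paired analysis was possible because each day has 1 library. Depth limits Il2, Il21, Lta and Csf2 most, which rest on 20 to 303 UMIs in the CD4 and CD8 gates.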
